A study of Mus musculus with 6 samples.

Results

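The cytosolic ribosomal protein genes were followed in mouse lung through 47 genes out of the 12393 that single-gene probe sets of the array name, which makes 98 of 22626 probe sets. They were chosen by name alone: every probe set whose annotation gives exactly 1 gene symbol, beginning with Rpl or Rps and a number or being Rplp0, Rplp1 or Rplp2, without the Rps6 kinases and without pseudogenes. The large (60S) subunit supplied 46 probe sets of 26 genes and the small (40S) subunit 52 probe sets of 21 genes. Another 102 probe sets list a ribosomal protein beside other symbols, such as pseudogenes, and were not analysed here. Of the 47 genes, 25 had 1 probe set and 22 had several, with up to 6 for one gene.

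The lungs came from female ob/ob mice of strain B6.V-Lepob/J, 1 month old, and all lacked functional leptin. One group was treated with leptin (3 arrays) and the other with saline (3 arrays), with 1 animal per array according to the labels. The dose, the route and how long treatment lasted are not stated there. Both groups carry the same mutation, so they differ in treatment and not in genotype. Effects of leptin itself and of any change in obesity that came with it cannot be told apart here. The p-values below measure only the spread between these few samples. RNA was amplified from a T7-oligo(dT) primer and hybridised to Affymetrix Mouse 430A arrays. The values are linear probe set intensities in arbitrary units, scaled by the authors to a common mean on each array. An intensity depends on how well its probes bind, so intensities of different probe sets are printed as values and not ranked as amounts of RNA.

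A ribosome joins a small subunit, which reads the messenger RNA, to a large subunit, which forms peptide bonds, and each holds its own set of proteins. The messenger RNAs of these proteins are abundant, and most begin at their 5′ end with a cytosine and a run of pyrimidines, the terminal oligopyrimidine (TOP) tract. The kinase mTOR, with the binding protein Larp1, governs the translation of TOP messenger RNAs. Hormones that act through mTOR can thus alter how much ribosomal protein is made without altering its messenger RNA, and only messenger RNA was measured here.

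The start of the gene is shown for the members that the results below turn on: the 3 genes with the smallest p-values (Rpl27a, Rpl11 and Rpl37), 4 genes whose probe sets are compared on saline replicate 1 (Rpl35, Rps10, Rps18 and Rps28), and the paralog Rpl3l. Each line gives 40 bases before and 20 bases from the annotated start on, 5′ to 3′ on the strand of the gene, from RefSeq's table for GRCm38.p6. Capitals mark the longest run of pyrimidines between 10 bases before and 20 bases after the start.
Rpl27a: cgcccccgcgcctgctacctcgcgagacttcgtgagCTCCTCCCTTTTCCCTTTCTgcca
Rpl11: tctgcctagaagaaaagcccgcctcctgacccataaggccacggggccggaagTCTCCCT
Rpl37: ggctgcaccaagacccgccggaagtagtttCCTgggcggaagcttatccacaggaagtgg
Rpl35: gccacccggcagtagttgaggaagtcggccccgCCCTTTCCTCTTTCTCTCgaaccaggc
Rps10: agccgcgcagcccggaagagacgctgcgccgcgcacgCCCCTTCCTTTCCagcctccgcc
Rps18: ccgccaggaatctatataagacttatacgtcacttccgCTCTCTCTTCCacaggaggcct
Rps28: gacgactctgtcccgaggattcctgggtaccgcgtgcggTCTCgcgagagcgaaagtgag
Rpl3l: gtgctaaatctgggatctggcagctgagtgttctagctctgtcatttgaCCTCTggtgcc

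These stretches lie at chr7:109519155-109519214 (plus strand) for Rpl27a, chr4:136053374-136053433 (minus) for Rpl11, chr15:5116573-5116632 (plus) for Rpl37 and chr2:39005112-39005171 (minus) for Rpl35. Rps10 is at chr17:27635225-27635284 (minus), Rps18 at chr17:33955646-33955705 (minus), Rps28 at chr17:33824543-33824602 (minus) and Rpl3l at chr17:24727786-24727845 (plus). The starts differed. The run was 20 bases long in Rpl27a, 18 in Rpl35, 13 in Rps10 and 11 in Rps18, and began within 7 bases before the annotated start in each. It was 7 bases in Rpl11, beginning at base 14 counted from the start, and 3 bases in Rpl37. In Rpl11 and Rpl37 the run touches an edge of the searched window, so its length there is a lower bound. It was 4 bases in Rps28 and 5 in Rpl3l, the striated muscle counterpart of Rpl3. RefSeq promoters were matched for 41 of the 47 genes; Rpl7, Rpl8, Rps4l, Rps14, Rps20 and Rps29 were not matched. A run of at least 7 pyrimidines, a length chosen after the sequences were seen, was present in 24 of the 41 genes (58.5%) and in 20.6% of the 17491 protein-coding genes of the table, or 21.4% of the 7516 among them with a tested probe set, with any annotated start of a gene counted. The core CCGGAAG of the ETS factor motif, which GABP binds, was found on either strand within the 300 bases from 250 before to 50 after the start in 20 of 41 genes (48.8%), against 12.9% of the protein-coding genes and 19.2% of those with a tested probe set. The YY1 core AAGATGGC was found in 4 (9.76%), against 3.57% and 5.08%. The last letters of the first motif and the first letters of the second are both AAG, so these motifs can overlap. These are matches of letters, and an annotated start can differ from the start used in the lung.

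The array of saline replicate 1 stood apart and is kept apart in what follows. Its log2 values correlated at 0.438 to 0.447 with those of the other arrays across all probe sets, which correlated at 0.973 to 0.978 with each other (Pearson's r, over probe sets that are not independent). Over the 98 ribosomal protein probe sets alone the same values were 0.495 to 0.507 and 0.989 to 0.995. Of its probe sets with a mean of at least 1000 on the other 5 arrays, 61.4% read at least 2-fold lower there than on the other saline arrays. Its 10th percentile was 57.0, against 16.3 to 19.2 on the others. Lung identity was plain on those 5 arrays, where Sftpc, surfactant protein C of alveolar type II cells, read 23964.4 to 29731.9, against 4087.1 on saline replicate 1. Other lung markers were uneven on saline replicate 1. Summed alveolar type I markers read 15597.2 there, against 44765.1 to 51706.9, while summed club cell markers read 90107.8, against 57448.0 to 64839.5. The club cell sum was high through Scgb1a1, at 68879.7 against 18472.6 to 22287.7, while Scgb3a2 and Cyp2f2 read lower there.

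On the 5 arrays that resembled each other, the ribosomal protein genes were nearly level between leptin and saline. Of the 98 probe sets, 84 (44 genes) were bright enough to be tested and 14 were left out by a filter on dim values. None of the 84 passed the threshold in limma, a linear model fitted here over 15838 probe sets at a Benjamini-Hochberg adjusted p of 0.05, and the smallest adjusted p was 0.853. At an unadjusted p under 0.05 there were 5 of 84, which is 5.95% against a background of 4.56% of all probe sets. Of these, 3 were higher (3.57%, against 2.6%) and 2 lower (2.38%, against 1.96%). With the replicate number as a block, 9 of 84 had an unadjusted p under 0.05 and again none passed the adjusted threshold. On these arrays leptin replicate 1 has no saline partner, so the block takes it out of the estimate. It also leaves less from which to measure the spread, so the block is a weaker test. Background shares past the adjusted threshold were 0.0442%, or 7 probe sets, none of them a ribosomal protein; under the same block 0 probe sets passed, with 1146 at an unadjusted p under 0.05. No member met the rule that the series states, which asks for 1.5-fold, p under 0.05 and most pairwise comparisons, and which 0.688% of all probe sets met on these arrays. Over the 84 probe sets, 49 read higher with leptin (58.3%, against 50.2% of all). Taking the brightest tested probe set of each gene, 25 of 44 genes read higher with leptin and 19 lower, 56.8% higher against 48.3% of all genes. The median log2 change was 0.03, against -0.01 over all 9365 genes. The lower and upper quartiles of the ribosomal protein genes were -0.03 and 0.11, and those of all genes -0.13 and 0.11. Large subunit genes had a median of 0.02 (13 of 23 higher) and small subunit genes 0.05 (12 of 21 higher).

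**Figure D1:**
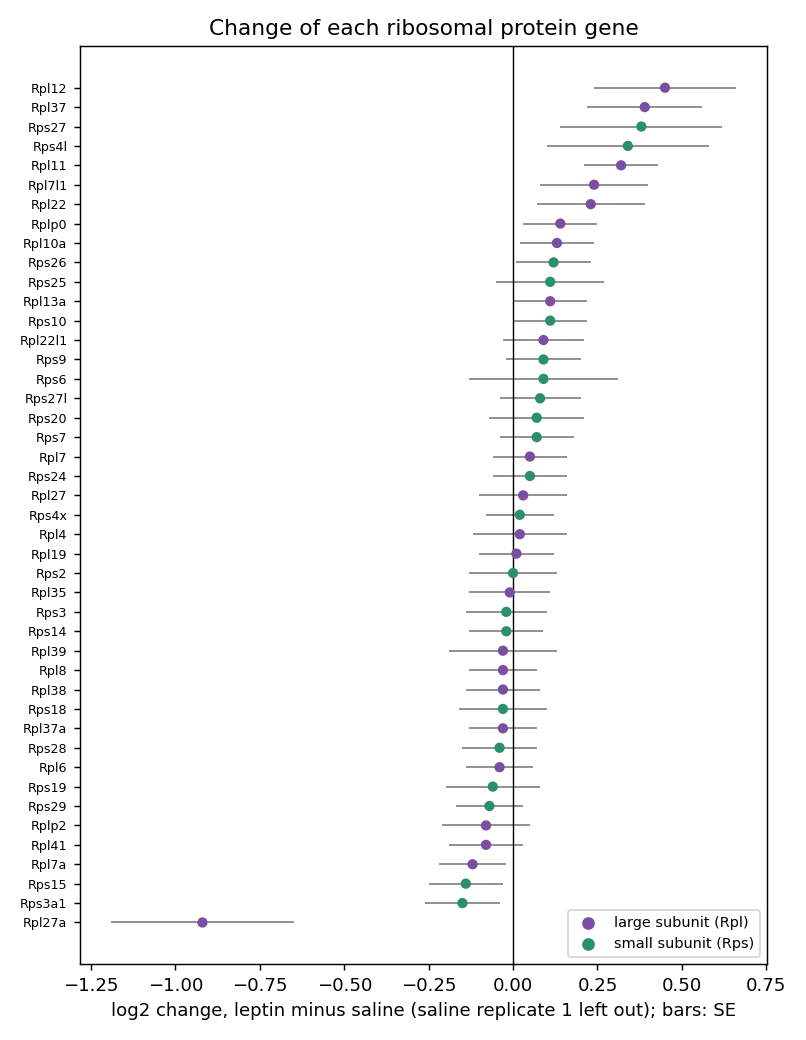
Log2 change between leptin and saline for the 44 tested genes, each by its brightest tested probe set, with saline replicate 1 left out; points are limma estimates, bars are standard errors, and colours give the subunit. All genes but Rpl27a, at -0.92, lie between -0.15 and 0.45.

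The measurements were precise enough to bound most of these differences. Of the 66 probe sets with a mean of at least 1000 over the 5 arrays, called bright here, the changes ran from -0.15 to 0.32 with a median standard error of 0.12. In 64 of them the 95% confidence interval of the change lay within 1.5-fold in both directions. The exceptions were 1 probe set each of Rpl7 (0.32 ± 0.30, log2 change ± SE, n = 3 leptin and 2 saline) and Rps24 (0.29 ± 0.19). Among the 3517 other probe sets past the same cutoff, not matched to the members in brightness otherwise, the interval lay within 1.5-fold in 3070. The highest of the 5 arrays exceeded the lowest by a median of 1.24-fold over the bright ribosomal protein probe sets, from 1.08-fold in the most even one to 2.63-fold in a probe set of Rpl7. Their median standard deviation over the 5 arrays was 0.129 on the log2 scale, against 0.144 for the other bright probe sets. The dimmer 18 tested members were wider, with a median standard error of 0.22, and held 4 of the 5 values at an unadjusted p under 0.05.

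Rplp0 and Rplp2, proteins of the stalk that recruits elongation factors to the large subunit, show the pattern of the bright members. Rplp0 read 8788.7, 9292.5 and 9219.0 with leptin, while saline replicates 2 and 3 read 7739.7 and 8846.2. Its groups overlapped, and the change was 0.14 ± 0.11 (limma adjusted p = 0.999). Rplp2 read 11409.8, 15459.7 and 13272.1 with leptin and 14778.8 and 13415.7 with saline, also overlapping, at -0.08 ± 0.13, and its sign turned with leptin replicate 1 left out (0.02). Rpl41, the shortest ribosomal protein, read 17970.3, 22842.3 and 19000.2 against 20459.7 and 21576.9 on its brightest probe set (-0.08 ± 0.11). Leptin replicate 2 was the highest array for both Rplp2 and Rpl41.

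Small shifts were shared by many members within an array. Measured from each gene's own 5-array mean, leptin replicate 1 had a median of -0.0515 over the 44 genes, with 11 of 44 genes above that mean. Leptin replicate 2 was at 0.0593 with 34 of 44 above, and leptin replicate 3 at 0.052 with 29 of 44. Saline replicates 2 and 3 were at -0.018 and -0.0184, with 20 and 18 of 44 above. Over all genes the same medians were 0.0199, 0.00921, -0.0249, 0.0184 and -0.00103 in that order. The leptin arrays thus lay on both sides of the saline arrays. Leaving out leptin replicate 1 moved the count of tested probe sets with higher values from 49 to 62 of 84 (73.8%), and leaving out leptin replicate 3 moved it to 36 (42.9%). In these fits the median change was 0.08 and -0.02 over the members, against -0.01 and 0.01 over all probe sets. The replicate block gave the same estimates as leaving out leptin replicate 1, so it is no second observation.

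Rpl27a, a large subunit protein, had the largest difference. Its tested probe set (Entrez Gene 26451) read 164.5, 118.0 and 265.3 with leptin, while saline replicates 2 and 3 read 334.9 and 361.0. All leptin arrays were lower, with a mean of 182.6 ± 75.3 (SD, n = 3) against 347.9 ± 18.5 (SD, n = 2). The log2 change was -0.92 ± 0.27 (limma unadjusted p = 0.00641, adjusted p = 0.853). On saline replicate 1 it read 416.8, which takes the saline mean to 370.9 ± 41.8 (SD, n = 3; limma unadjusted p = 0.0243, adjusted p = 0.707, with all 6 arrays). The groups did not overlap with or without that array. Rpl27a was also the one member to meet the series' own rule on all 6 arrays, with 7 of 9 pairwise comparisons at 1.5-fold or more, which 0.221% of all probe sets did. Over the alternatives tried on the 5 arrays it stayed between -1.19 and -0.68. The gene's other probe set read 14.2, 13.3 and 15.2 against 16.1 and 12.7, too dim to be tested and overlapping. The tested one is itself dim, with a mean of 248.7 over the 5 arrays. The Rpl27a difference thus stands on a dim probe set alone.

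By their brightest probe set, the genes that read higher at an unadjusted p under 0.05 were Rpl11 (Entrez Gene 67025) and Rpl37 (67281), and neither passed the adjusted threshold. Rpl11, which with Rpl5 forms the 5S ribonucleoprotein and can bind the p53 regulator Mdm2, read 4109.5, 4215.2 and 4269.6 with leptin against 3200.0 and 3527.6 with saline. The groups did not overlap, and the change was 0.32 ± 0.11 (limma adjusted p = 0.999). Rpl37, a small zinc-binding protein of the large subunit, read 936.3, 976.6 and 1249.8 against 722.2 and 864.3, again without overlap, at 0.39 ± 0.17 (adjusted p = 0.999). Rpl12 (269261), at the base of the stalk, read 160.3, 175.0 and 181.1 against 118.3 and 122.6, at 0.45 ± 0.21 (unadjusted p = 0.0616). These 3 differed in what saline replicate 1 did to them: it read 284.0 for Rpl11, below all others, and 2025.3 for Rpl37 and 377.2 for Rpl12, above all others. With it included, Rpl11 was at 1.47 ± 0.95 and Rpl37 and Rpl12 both at -0.05 (limma adjusted p = 0.707, 0.952 and 0.958).

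**Figure D2:**
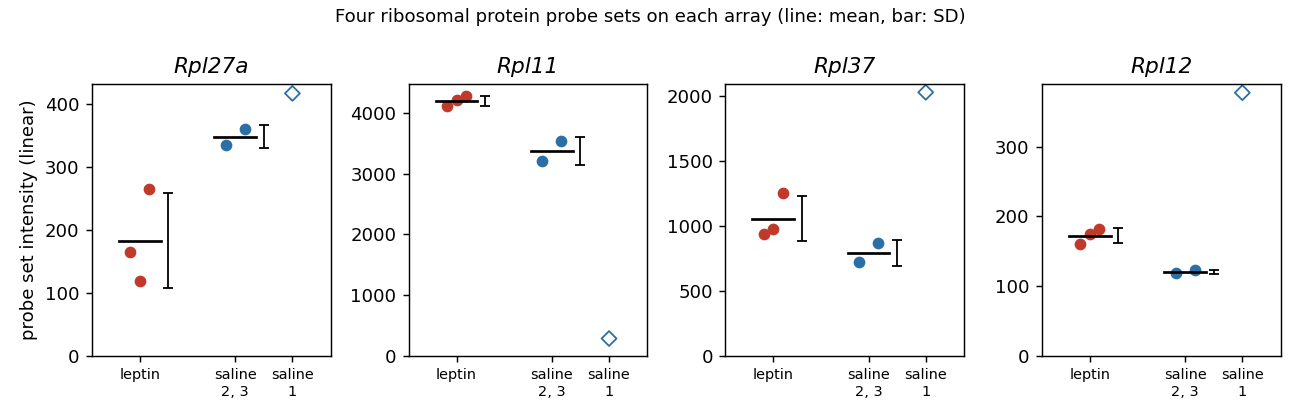
Linear intensity of the tested Rpl27a, Rpl11, Rpl37 and Rpl12 probe sets; filled points are the 3 leptin arrays and saline replicates 2 and 3, lines their means, bars the SD, and open diamonds saline replicate 1. Leptin and saline points do not overlap in any panel, and the diamond lies above both groups for Rpl27a, Rpl37 and Rpl12 and far below for Rpl11.

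In all, 11 of the 84 tested members had groups that did not overlap, 9 higher and 2 lower with leptin. That is 13.1% against 19.6% of all probe sets, so the share of separated members was below the background. The 9 higher ones were 10.7% against 9.92%, and the 2 lower ones, Rpl27a and Rpl7a, 2.38% against 9.69%. Beside the genes above, the higher ones were Rpl10a at 0.13, 2 probe sets of Rpl13a at 0.38 and 0.12, Rpl7l1 at 0.24, Rps25 at 0.11 and Rps9 at 0.09. Rpl7a was at -0.12.

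The paralogs, genes that arose as copies of ribosomal protein genes, were uneven in brightness and gave no call. Rpl22l1, which can take the place of Rpl22, read 2396.7, 2509.0 and 2506.7 with leptin and 2165.7 and 2493.9 with saline (0.09, and -0.01 without saline replicate 2). Rps27l, a p53-inducible relative of Rps27, had 3 bright probe sets with changes of 0.01 to 0.15, and Rps27 itself was at 0.38 ± 0.24 on a dim one, with 0.10 to 0.66 when single arrays were left out. Rps4l read 327.0, 480.5 and 648.4 against 349.9 and 382.4 (0.34 ± 0.24), with leptin arrays on both sides of saline. Rps4l was at 0.11 without leptin replicate 3 and at 0.58 without leptin replicate 1. Rpl7l1 had probe sets at 0.24 and 0.01. Rpl39l, known from testis, read 69.6, 12.4 and 74.9 against 10.4 and 3.3, and Rpl3l 11.9, 12.6 and 19.2 against 23.8 and 6.3, both too dim to be tested.

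Probe sets annotated to the same gene gave further readings on the same arrays. Whether each reports the same messenger RNA was not tested. Of 19 genes with at least 2 tested probe sets, 10 had changes of one sign and 9 of both signs. The median standard error of the tested members was 0.13, so the sign of a smaller change is uncertain. Both signs were seen in 14 genes with the replicate block or without leptin replicate 1, which give the same estimates here, and in 6 without leptin replicate 2. The widest gap was in Rpl37a, where a dim probe set read 461.3, 295.3 and 190.5 with leptin against 645.7 and 397.8 with saline, at -0.73 ± 0.31 (unadjusted p = 0.0389). The 2 bright probe sets of Rpl37a were both at -0.03, with standard errors of 0.10 and 0.13. Rpl13a, a large subunit protein that can also leave the ribosome to silence messenger RNAs, had 4 tested probe sets. Its dimmest read 407.1, 491.0 and 474.4 against 306.9 and 389.4, at 0.38 ± 0.17 (unadjusted p = 0.0486), and the brighter ones were at 0.12, 0.11 and -0.11. In both genes the difference at an unadjusted p under 0.05 stood on the dim probe set alone. Rpl7, Rpl41, Rps20, Rps10 and Rps15 also had probe sets of both signs, with gaps of 0.39, 0.30, 0.26, 0.18 and 0.16.

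On saline replicate 1 the ribosomal protein probe sets split apart. Of the 66 bright ones, 49 read at least 2-fold lower than the mean of saline replicates 2 and 3 (74.2%, against 61.4% of all bright probe sets) and 24 at least 10-fold lower (36.4%, against 19.3%). At the other end, 8 read at least 2-fold higher (12.1%, against 7.79%). The 32 dim members went more often the other way: 19 read at least 2-fold higher (59.4%, against 50.6% of all dim probe sets) and 4 at least 2-fold lower (12.5%, against 17.7%). With quantile normalization the count at least 2-fold lower was 46, and with a common median 50. As 1 array this has no replicate check. The dimmest member, a probe set of Rps18, read 5.1, 6.4 and 7.5 with leptin and 3.6 and 9.8 on the other saline arrays, and 225.0 there. The median of the bright members was 1271.0 there, against 7441.8 to 8171.4 on the other arrays.

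**Figure D3:**
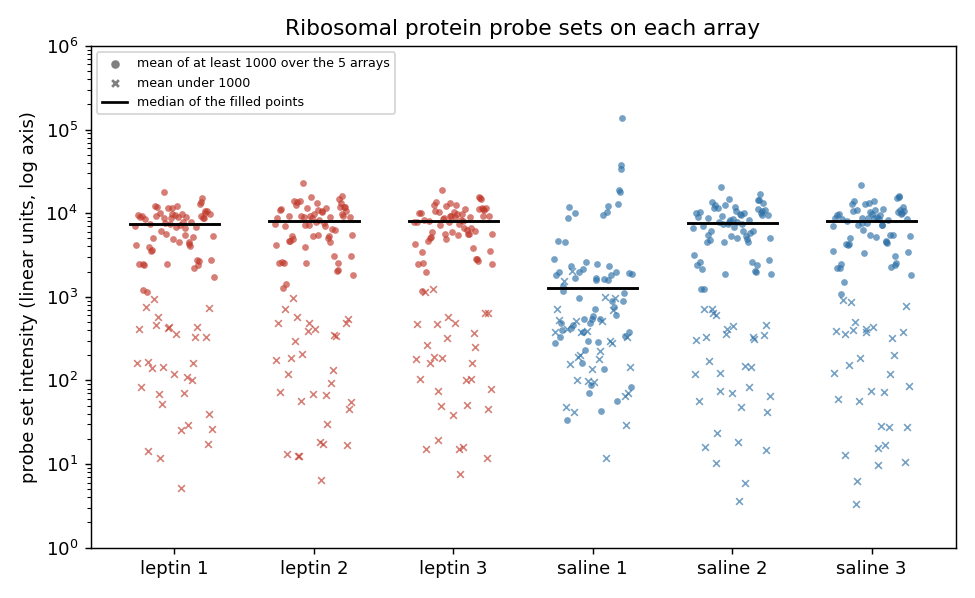
Linear intensity (log axis) of all 98 ribosomal protein probe sets on each of the 6 arrays; circles have a mean of at least 1000 over the 5 arrays without saline replicate 1, crosses are dimmer, and lines are the medians of the circles. Circles lie above crosses on leptin replicates 1 and 2 and saline replicates 2 and 3, nearly so on leptin replicate 3, and both mix on saline replicate 1, where the median of the circles is 1271.0.

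Rplp0, often used as a reference gene, read 71.6 on saline replicate 1, close to that array's 10th percentile of 57.0, so its level there is hardly measured. Rps2, of the small subunit's messenger RNA entry site, read 137.0, and Rplp2 480.8. Rps29, a small zinc-binding protein of the small subunit, went the other way on all 3 of its probe sets. These read 33701.2, 37194.4 and 136732.9 there, against 15777.7 to 16749.9, 9936.2 to 11003.5 and 9493.7 to 9657.8 on the other saline arrays. The ratio of the last, 14.3, was the highest among the bright members. Rps28 (ratios of 0.871, 1.74 and 1.18) and the bright probe sets of Rps20 (2.08 and 2.55) also kept or exceeded their levels. Rps24 was intermediate, with 4 bright probe sets at ratios of 0.284 to 0.363.

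For some genes the split ran between probe sets of one gene. Rps18 read 43.0, 536.9 and 9559.5 on saline replicate 1 with its 3 bright probe sets, which read 7303.7 to 9845.7 on the other saline arrays. The lowest of these lies under that array's 10th percentile. Set to that percentile, a floor chosen after seeing the data, it was 167.5-fold lower than on the other saline arrays. That floor is not a measured detection limit. A dim probe set of Rps18 read 225.0 there, against 3.6 and 9.8 on the other saline arrays. The size of the largest falls is thus uncertain. The other bright probe sets of Rps18 had ratios of 0.0585 and 1.3. Rpl35 had 5 bright probe sets. Its lowest, at 33.5, was 76.8-fold lower with the same floor, while the highest, at 11830.5, had a ratio of 2.47. Of the 66 bright members 3 lay under that percentile, and the count at least 10-fold lower was 24 with the floor too. Rps10, by contrast, was low on all 4 bright probe sets, at 0.00935 to 0.101. The lowest of these read 87.3, not far above that percentile. Among 18 genes with at least 2 bright probe sets, 5 (Rpl13a, Rpl27, Rpl35, Rps18 and Rps9) had one below 0.5 and one above 1. On the leptin arrays the probe sets of these 18 genes stayed together: the largest gap on any of those arrays was 0.86 on the log2 scale, for Rpl7. On saline replicate 1 the gap was 7.77 for Rps18 with the floor. For Rps9, with no value under the 10th percentile, it was 5.98. The lower probe set of Rps9 read 84.4 there, not far above that percentile.

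**Figure D4:**
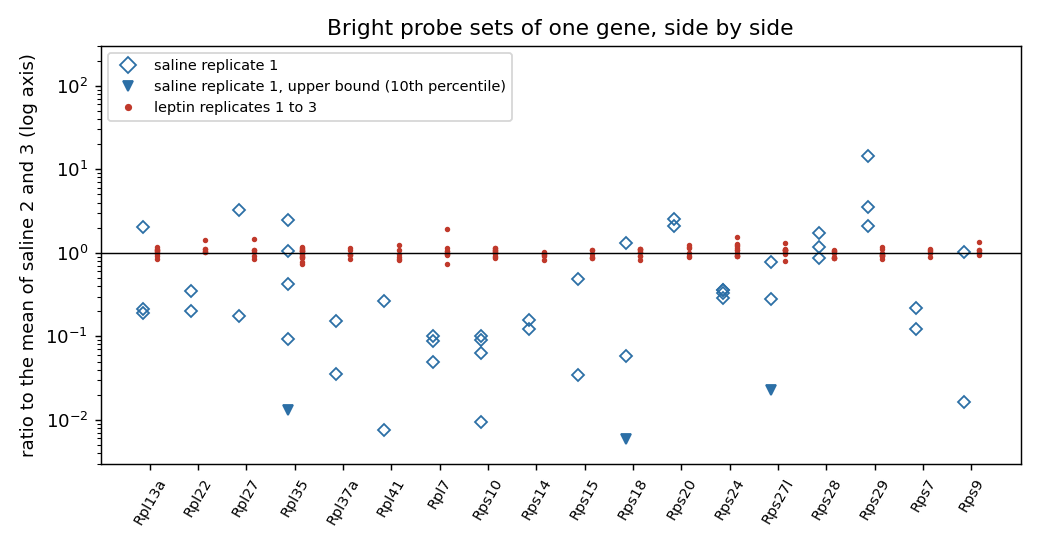
Ratio of each bright probe set to its mean on saline replicates 2 and 3 (log axis) for the 18 genes with at least 2 such probe sets. Open diamonds are saline replicate 1 and dots the 3 leptin arrays. Filled triangles, labelled upper bound, are values of saline replicate 1 under its 10th percentile, drawn at that percentile. The dots run from 0.74 to 1.91, with 145 of 147 within 1.5-fold of 1, while the marks of Rps9 lie at 0.0164 and 1.04 and those of Rps29 all above 1.

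The kind of probe set moved with this split. In Affymetrix names the ending _x_at marks a set with some probes that also match other sequences, _a_at a set for transcripts of one gene, and _at a set with unique probes. Of the bright members, 12 of 34 _x_at sets read above the other saline arrays, against 1 of 25 _a_at sets, 0 of 5 _at sets and 0 of 2 _s_at sets. All probe sets of Rps29 and all bright ones of Rps20 were _x_at sets. Among all bright probe sets the shares above 1 were 43% of _x_at, 18.6% of _a_at and 12.1% of _at. The part of probe type in the split was not tested.

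With saline replicate 1 included, the comparison of 3 against 3 arrays took on this split. No member was called (smallest limma adjusted p = 0.707, with 0 of 15837 probe sets called), and 1 of 85 tested, Rpl27a, had an unadjusted p under 0.05 (1.18%, against 0.366%). The median change of the 45 tested genes was 0.80, with 33 higher and 12 lower with leptin (73.3% higher, against 49.5% of all genes), and it was 0.03 without that array. The median standard error of the members was 0.66 against 0.13 without it. Rplp0 stood at 2.29 ± 1.73 and Rpl41 at 2.20 ± 1.84. Of the 85 tested probe sets, 62 read higher with leptin (72.9%, against 49.7%). In 5 the groups did not overlap (5.88%, against 9.1%), 4 higher (4.71%, against 4.83%) and 1 lower (1.18%, against 4.27%).

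Genes that work with the ribosome were followed on the same 5 arrays, and none of those tested in the 7 lists passed the adjusted threshold. Fau and Rpsa, ribosomal proteins with other names, were at 0.08 and -0.05. Of 74 mitochondrial ribosomal protein genes, whose products serve the separate ribosome of the mitochondrion, 34 were higher and 40 lower (median -0.02), with 0 at an unadjusted p under 0.05; Mrpl33 and Mrps21 had the smallest p, at -0.43 and 0.29. Initiation factors had 19 of 40 higher (median -0.02; Eif4a1 at 0.23 and Eif5a at 0.17) and elongation factors 2 of 7 (median -0.05; Eef1b2 at 0.12 and Eef1e1 at -0.18). Ribosome assembly genes had 11 of 32 higher (median -0.07; Taf1b at 0.29 and Tsr1 at -0.37). Genes listed for the transcription of ribosomal protein genes had 5 of 6 higher (median 0.11, with Tbp at 0.34 and Sp1 at 0.15). The medians compare with -0.01 over all genes.

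Of 17 genes of mTOR and TOP control, 5 were higher and 12 lower (median -0.14), while 4843 of all 9365 genes were lower. The median rested on the saline arrays: it was 0.01 without saline replicate 2 and -0.30 without saline replicate 3. Ddit4, which restrains mTOR complex 1, read 1058.6, 940.1 and 1303.8 with leptin and 1892.1 and 2154.3 with saline. All leptin arrays were lower, at -0.87 ± 0.16 (limma unadjusted p = 0.00022, adjusted p = 0.173), and with saline replicate 1, at 467.5, it was at -0.19. Mtor itself was at 0.29 ± 0.15.

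Markers of other cell types were read on the same arrays. All 7 tested red cell markers were lower with leptin (median -0.79), 3 of them past the adjusted threshold (limma adjusted p = 0.049 for Slc25a37, Alas2 and Bpgm), and their summed intensity was 6372.8 to 8095.1 with leptin and 14045.8 and 17598.2 with saline. These calls depended on the processing. No probe set passed, these 3 included, with a common median, quantile normalization, no filter, no trend or a pseudocount of 1. None passed with leptin replicate 1 left out or with the replicate block either. The block takes leptin replicate 1 out of the estimate and is a weaker test. All 6 B cell markers were higher (median 0.45), with sums of 1527.4 to 2093.7 against 1306.5 and 1422.9, and none was called. In whole lung a change in the number of cells of a type and in RNA per cell cannot be told apart, and the part of these cells in the small differences above was not tested. The 5 neutrophil markers had a median of 0.66, which turned to -0.21 without saline replicate 3, and their sums overlapped, at 2738.7 to 6288.1 with leptin against 4836.2 and 2296.7. On saline replicate 1 the macrophage markers were uneven: Csf1r read 93803.4, against 2950.2 to 3383.5 on the other arrays, and Adgre1 4321.7, against 352.4 to 507.5, while Cd68 read 313.6, against 191.6 to 265.6, and Mrc1 301.1, against 627.1 to 850.8. The part of this in the split of the ribosomal protein probe sets was not tested. Alveolar type II markers were at a median of -0.10, with sums of 98975.8 to 111444.0 against 112888.4 and 112923.5.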

How the data were processed

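The deposited values are linear probe set intensities, 1 column per array. How probe signals were summarised and called is not stated in the labels' protocols or file headers. The authors had scaled each array: a mean without the lowest and highest 2% was 499.96 to 499.98 on every array. The file holds 22690 probe sets, and 64 controls were left out. Genes come from the platform's annotation table. Tests used log2(intensity + 22.0), the added constant being the 10th percentile over the file; on this scale changes of dim probe sets come out too small. Probe sets in the lowest 30% of mean intensity were dropped, and the remainder tested with limma 3.58.1 (R 4.3.3; lmFit, eBayes with trend, two-sided, Benjamini-Hochberg), on 5 arrays and on all 6. The fit was tested on simulated data. Precision is limited by how many arrays there are. The series' rule was applied with a 2-sample test of pooled variance; without saline replicate 1 it asked for 4 of 6 pairwise comparisons.

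The members and gene lists were chosen with earlier results of these data known. Named are genes at an unadjusted p under 0.05, probe sets of opposite sign, the brightest and dimmest members, stalk genes, paralogs, Rpl27a, extremes on saline replicate 1 and the leading 2 genes of each list; for Rpl12, Rps27, the non-overlapping members and the probe sets of Rpl37a, Rpl35, Rps18, Rps28, Rps29 and Rps24 some values were chosen after they were seen.

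The labels do not say that replicate numbers pair animals. Deviations of same-numbered arrays correlated at 0.105 to 0.147, against -0.149 to 0.048 for other numbers, so pairing by number has a hint in the data and none in the labels, and the fits leave it out except where the replicate block is named. Alternatives were quantile normalization, a common median, other pseudocounts and filters, the block, no trend, array weights and leaving out each array.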

Additional observations from a re-analysis of the deposited data

How the results depend on the processing

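The count of ribosomal protein probe sets past the adjusted threshold was 0 under each limma alternative tried, with and without saline replicate 1, and the series' rule gave 1 (Rpl27a) on all 6 arrays. Over all probe sets on 5 arrays, 7 passed; this was 0 with a common median, quantile normalization, no filter, no trend, a pseudocount of 1 and the replicate block, 0 to 3 when single arrays were left out, 11 at a threshold of 0.10 and 109 by the series' rule. On all 6 arrays it was 8 with array weights, 35 by the series' rule, and 0 to 7 when single arrays were left out, with 7 without saline replicate 1. The median change of the ribosomal protein genes on 5 arrays lay between 0.01 (common median) and 0.07 (replicate block). On all 6 arrays it was 0.60 to 0.95 under the alternatives that kept 6 equal arrays, 0.05 with array weights, and 0.03 to 1.03 when single arrays were left out, the lowest without saline replicate 1. A common median moved the median of all probe sets on 6 arrays to 0.16, with the ribosomal protein probe sets at 0.80. Genes with probe sets of both signs numbered 14 with the replicate block, and 6 to 14 when single arrays were left out. The replicate block changed no call of a ribosomal protein probe set. The settings tried for probe sets of both signs and for saline replicate 1, the floor included, were chosen after seeing the data. When a saline array is left out of the 5, the lone one left is assumed to vary like the leptin arrays. The causes of these differences were not tested. Signal over background limits the dim members: 14 of 98 were not tested.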
